A study of Mus musculus with 18 samples.

Results

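The aryl hydrocarbon receptor (AHR) pathway was followed through 6 genes, Ahr, Arnt, Ahrr, Cyp1a1, Cyp1b1 and Tiparp, in RNA-seq counts from mouse spleen and from macrophages isolated from spleen. These were the rows of the count table whose Ensembl identifiers carry those symbols, and all 6 were found among 55414 gene identifiers. All mice were labelled Wild Type C57BL/6J, with a time of 30 days, and the labels used here give neither sex nor age. In the first experiment whole spleens came from mice exposed to PM2.5 (fine airborne particles, n = 4 libraries) or to filtered air (n = 4). The second experiment used macrophages that had been separated from spleen, from a PM2.5 group (n = 5) and an air group (n = 5). The protocol text of the second experiment mentions filtered air following the exposure, and does not say how long that lasted. The labels call the particle groups CAP, an abbreviation they do not expand, and the treatment text was used to equate it with PM2.5. Macrophage PM2.5 replicate 1 was grouped by its title and description, although its treatment field names air.

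AHR is a transcription factor of the bHLH-PAS family that waits in the cytoplasm with HSP90 and co-chaperones until it binds a ligand, such as a polycyclic aromatic hydrocarbon from combustion or a tryptophan metabolite. It then enters the nucleus, pairs with ARNT and binds xenobiotic response elements, which turns on genes of xenobiotic metabolism, classically the cytochrome P450 monooxygenases Cyp1a1 and Cyp1b1. Ahrr and Tiparp are targets that feed back: the AHR repressor competes for ARNT, and TIPARP is a mono-ADP-ribosyltransferase that dampens AHR signalling. ARNT also serves other partners, the hypoxia-inducible factors among them.

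Promoter sequences are shown for the repressor and for the classical target genes, since the core of the xenobiotic response element is what AHR and ARNT bind. They come from RefSeq (GRCm38.p6), run 5′ to 3′ on the gene's strand, and end at the last base before the start or, for Tiparp, before the first annotated exon base. Capitals mark the core GCGTG, which reads CACGC where it lies on the opposite strand. The windows are chr13:74292332-74292581 (minus strand) for Ahrr, chr9:57697363-57697612 (plus) for Cyp1a1, chr17:79715062-79715311 (minus) for Cyp1b1 and chr3:65528197-65528409 (plus) for Tiparp.
Ahrr: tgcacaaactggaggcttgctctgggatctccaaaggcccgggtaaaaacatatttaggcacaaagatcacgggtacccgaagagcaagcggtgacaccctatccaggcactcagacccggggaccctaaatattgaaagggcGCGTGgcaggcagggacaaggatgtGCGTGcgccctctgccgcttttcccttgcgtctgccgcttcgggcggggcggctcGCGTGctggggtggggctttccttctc
Cyp1a1: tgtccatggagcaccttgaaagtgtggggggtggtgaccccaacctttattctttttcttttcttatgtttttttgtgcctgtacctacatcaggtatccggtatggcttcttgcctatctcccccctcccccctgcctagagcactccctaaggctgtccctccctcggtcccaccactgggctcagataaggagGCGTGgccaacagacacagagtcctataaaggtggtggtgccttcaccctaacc
Cyp1b1: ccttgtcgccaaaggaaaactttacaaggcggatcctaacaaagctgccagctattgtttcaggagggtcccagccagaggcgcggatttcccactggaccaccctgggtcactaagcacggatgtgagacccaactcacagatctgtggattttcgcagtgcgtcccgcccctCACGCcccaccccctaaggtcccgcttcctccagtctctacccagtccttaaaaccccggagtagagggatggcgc
Tiparp: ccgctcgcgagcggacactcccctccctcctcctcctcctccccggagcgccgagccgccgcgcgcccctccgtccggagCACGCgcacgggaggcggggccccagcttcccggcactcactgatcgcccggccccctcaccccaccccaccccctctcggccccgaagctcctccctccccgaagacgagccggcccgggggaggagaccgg

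Ahrr held 3 copies of the core, with first bases -107, -82 and -27 relative to the start, all on the gene's strand. Cyp1a1 held 1 on the gene's strand, at -54 from the RefSeq start, which lies inside the gene span given below. Cyp1b1 and Tiparp held 1 each on the opposite strand, beginning at -76 in Cyp1b1 and at -170 in Tiparp. Arnt, which is not known for induction by AHR, also held 1, at -29. The longer form TNGCGTG, which contains the core, was found only at Ahrr among the 5 genes with a RefSeq entry, also beginning at -29. All 5 genes were searched over the full 250 bases before the RefSeq start, also where the sequence printed is shorter. Searched on both strands, GCGTG occurred in 28.2% and TNGCGTG in 4.1% of 32851 RefSeq windows of the same 250 bases. A match describes letters in these windows and does not show binding. Sequence outside these windows was not searched, so elements lying elsewhere were not counted.

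**Figure D1:**
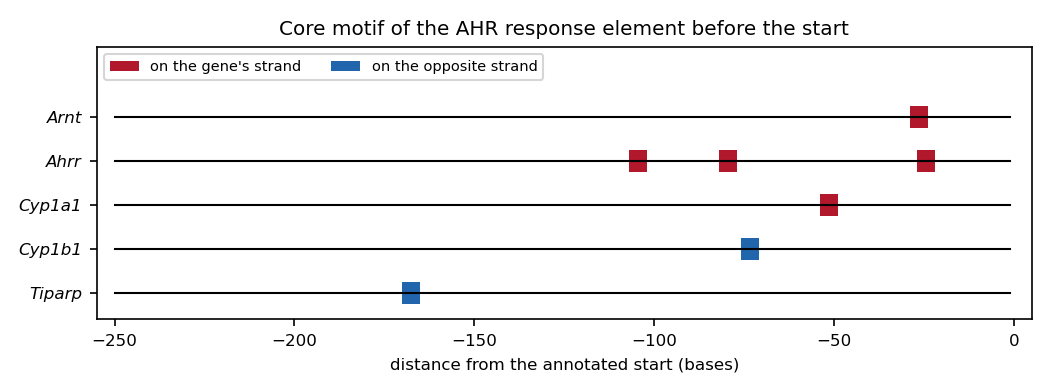
Matches to the core motif in the 250 bases before the annotated start of 5 pathway genes, with the distance from the start in bases on the x axis. Each block is 1 match, red on the gene's strand and blue on the opposite strand. Ahrr held 3 matches and the other 4 genes held 1 each.

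Positions are those of GENCODE M21 on GRCm38, and all 6 genes are protein-coding. Ahr (ENSMUSG00000019256) lies at chr12:35497974-35535038 on the minus strand, Arnt (ENSMUSG00000015522) at chr3:95434388-95497240 on the plus strand and Ahrr (ENSMUSG00000021575) at chr13:74211118-74292331 on the minus strand. Cyp1a1 (ENSMUSG00000032315) lies at chr9:57687928-57703824 on the plus strand, Cyp1b1 (ENSMUSG00000024087) at chr17:79701537-79715061 on the minus strand and Tiparp (ENSMUSG00000034640) at chr3:65528410-65555518 on the plus strand. Counts cover whole genes. Ahr shares 127 exonic bases with the opposite-strand gene Gm48236, and Tiparp shares 223 with 4931440P22Rik. Because the strand setting of the counting is not given in the sources used here, reads in those bases cannot be assigned to either gene.

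Libraries held 18427891 to 19906706 counts in PM2.5 spleens and 16493694 to 20352346 in air spleens. They held 18848048 to 33844807 counts in PM2.5 macrophages and 18107264 to 29013034 in air macrophages. Levels below are CPM, a count relative to the library total, after TMM scaling of all 18 libraries together. The macrophage label was borne out by its markers: 10 red pulp macrophage genes summed to 14500 to 20600 CPM in PM2.5 and 17200 to 24000 CPM in air macrophages, against 568 to 861 CPM in PM2.5 spleens and 379 to 709 CPM in air spleens. B cell markers remained in the macrophage preparations, at 2470 to 3730 CPM with PM2.5 and 2100 to 3290 CPM with air, where whole spleens had 3810 to 5340 CPM with PM2.5 and 5440 to 6270 CPM with air. The 12 erythroid markers summed to 4350 to 7730 CPM in PM2.5 and 2510 to 8900 CPM in air macrophages, and to 903 to 15300 CPM in PM2.5 and 345 to 2900 CPM in air spleens. In spleens 7 mesothelial markers to 39.7 to 234 CPM with PM2.5 and 2.75 to 5.35 CPM with air. In bulk RNA, fewer cells of a type and less RNA per cell cannot be told apart.

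Every member that could be tested differed between macrophages and whole spleen, and none passed the threshold for PM2.5 in either. Ahr, Arnt, Ahrr and Tiparp were higher in macrophages than in whole spleen under air, and Cyp1b1 was 50-fold lower. Under PM2.5, the nearest to a change were a lower Ahrr and a higher Cyp1b1, both in macrophages, and neither passed an adjusted p of 0.05. Cyp1a1, the gene most often read as a sign of AHR activation, stayed at a few counts per library in all 4 groups.

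**Figure D2:**
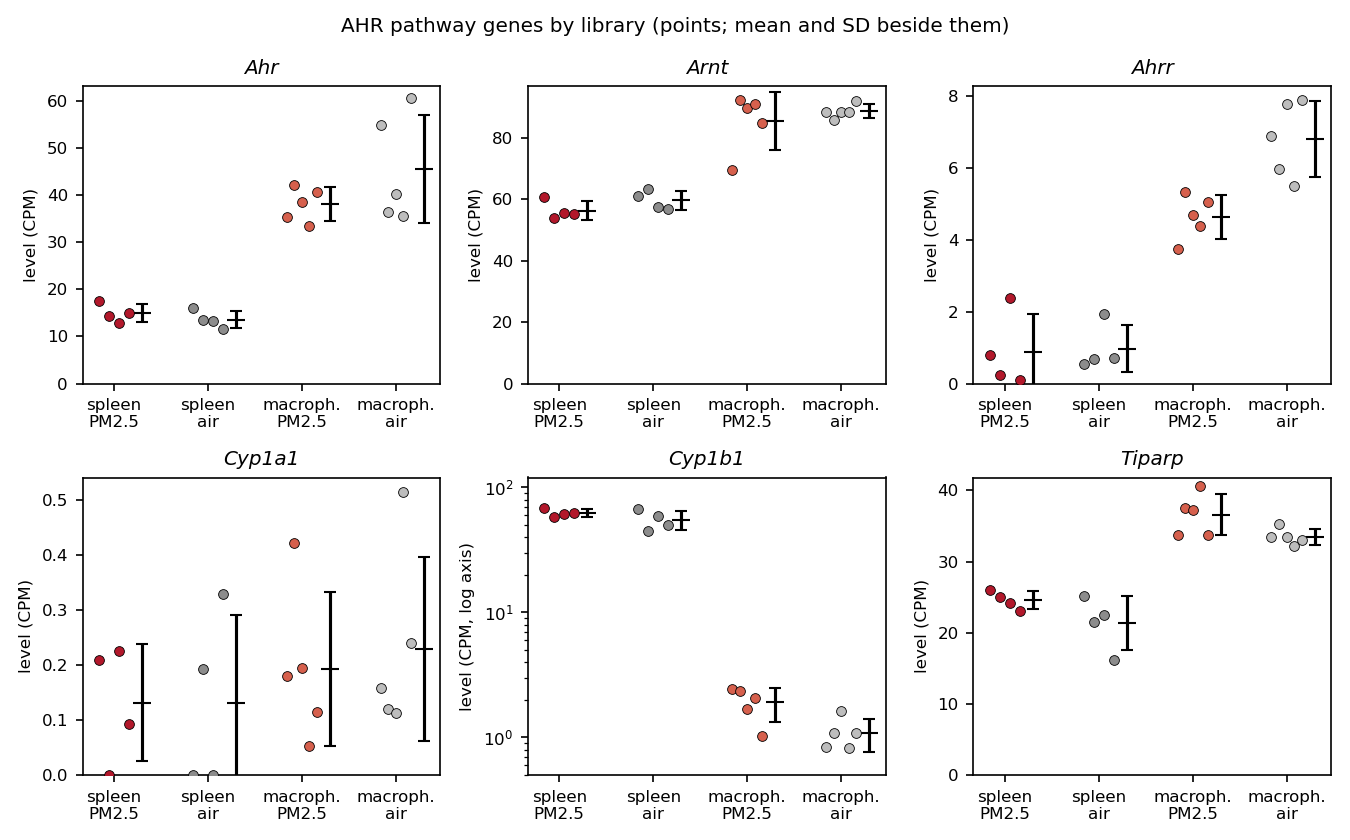
Level of each of the 6 genes in every library, in CPM on the y axis, with PM2.5 left of air for spleen and for macrophages; Cyp1b1 is drawn on a log axis. Points are libraries, and the bar beside them is the mean with its SD (n = 4 per spleen group, n = 5 per macrophage group). Cyp1b1 sits at 44.7 to 68.9 CPM in spleens and at 0.823 to 2.42 CPM in macrophages, and the PM2.5 and air points of Ahrr separate in macrophages.

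Divided by exonic length, the members can be set in order. In macrophages Arnt stood highest, at 10.7 ± 1.16 CPM per kilobase with PM2.5 and 11.1 ± 0.281 with air. Tiparp followed at 8.39 ± 0.67 with PM2.5 and 7.69 ± 0.257 with air, and then Ahr at 6.18 ± 0.585 with PM2.5 and 7.4 ± 1.87 with air. Ahrr stood far below at 0.491 ± 0.0649 with PM2.5 and 0.721 ± 0.113 with air. Cyp1b1 came next at 0.326 ± 0.0975 with PM2.5 and 0.187 ± 0.0551 with air, and Cyp1a1 last at 0.0692 ± 0.0502 with PM2.5 and 0.0824 ± 0.0599 CPM per kilobase with air (SD, n = 5 each). Neighbours whose libraries overlapped were Arnt and Tiparp, and Ahrr and Cyp1b1, with PM2.5, and Tiparp and Ahr, and Cyp1b1 and Cyp1a1, with air.

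In spleens Cyp1b1 led the order instead, at 10.7 ± 0.769 CPM per kilobase with PM2.5 and 9.46 ± 1.66 with air. Arnt had 7.03 ± 0.388 with PM2.5 and 7.45 ± 0.385 with air, and Tiparp 5.64 ± 0.287 with PM2.5 and 4.89 ± 0.877 with air. Ahr had 2.42 ± 0.31 with PM2.5 and 2.21 ± 0.296 with air. Ahrr, at 0.0929 ± 0.111 with PM2.5 and 0.102 ± 0.0691 with air, and Cyp1a1, at 0.0473 ± 0.0379 with PM2.5 and 0.0468 ± 0.0576 CPM per kilobase with air, were lowest (SD, n = 4 each). Ahrr and Cyp1a1 overlapped in both groups, and Cyp1b1 and Arnt overlapped in air spleens only.

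Against whole spleen, air macrophages differed in all 5 members that had enough counts to be tested. Ahr was 3.35-fold higher in edgeR's quasi-likelihood test (log2 1.75 ± 0.163 SE, adjusted p = 2.54e-08). Ahrr rose 6.93-fold (2.79 ± 0.551, adjusted p = 0.000197), Tiparp 1.57-fold (0.65 ± 0.111, adjusted p = 4.21e-05) and Arnt 1.49-fold (0.57 ± 0.0852, adjusted p = 9.49e-06). Cyp1b1 fell by 5.64 ± 0.229 on the log2 scale (adjusted p = 3.54e-13). The libraries of the 2 groups did not overlap for any of the 5. Most genes differed between the preparations: 66.5% of the 17779 genes tested passed, and 56.2% did not overlap, so 5 of 5 members stand against a high background. The members' median log2 fold change was 0.65, and that of all genes tested 0.001. Markers of several cell types moved with the contrast: at an adjusted p under 0.05, 10 of 10 red pulp macrophage and 10 of 12 erythroid markers were higher in air macrophages, and 7 of 7 B cell, 7 of 8 T cell and 9 of 9 stromal markers were lower. Their part in the members' differences was not tested, and preparation and experiment cannot be told apart in this contrast.

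Cyp1b1 is known to be expressed in stromal cells, and stromal markers moved with it. The 9 stromal and smooth muscle markers summed to 9.82 to 14.6 CPM in air macrophages and 203 to 464 CPM in air spleens, with Lum at 0 in every macrophage library. Their part in the difference was not tested.

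Ahr, the receptor itself, had 17.5, 14.3, 12.9 and 15.1 CPM in PM2.5 spleens, against 16.1, 13.4, 13.3 and 11.6 CPM in air spleens. The groups overlapped, and the log2 fold change of 0.13 (95% interval -0.25 to 0.51, adjusted p = 0.739) was within the spread of the libraries. In macrophages Ahr had 35.4, 42.2, 38.7, 33.5 and 40.7 CPM with PM2.5, against 55.0, 36.5, 40.2, 35.6 and 60.8 CPM with air. Air replicates 1 and 5 lay above every PM2.5 library, and the other 3 air libraries lay among them. The log2 fold change was -0.26 (95% interval -0.58 to 0.07, adjusted p = 0.566).

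Arnt, the partner that AHR needs to bind DNA, had 60.8, 53.8, 55.5 and 55.1 CPM in PM2.5 spleens and 61.1, 63.3, 57.5 and 56.8 CPM in air spleens. Its groups overlapped there, with a log2 fold change of -0.09 (95% interval -0.31 to 0.14, adjusted p = 0.71). PM2.5 macrophages had 69.7, 92.3, 89.8, 91.1 and 84.8 CPM, and air macrophages 88.6, 85.9, 88.6, 88.3 and 92.2 CPM. Replicate 1 of the PM2.5 macrophages, the library with the conflicting treatment field, stood lowest, and the other 4 lay close to the air libraries. The log2 fold change was -0.05 (95% interval -0.22 to 0.12, adjusted p = 0.837), and 0.0036 without that library.

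Ahrr, the repressor, gave the clearest separation by exposure among the members, and that in macrophages. It had 3.75, 5.33, 4.68, 4.39 and 5.05 CPM in PM2.5 macrophages (62 to 144 counts), against 6.9, 5.98, 7.79, 5.5 and 7.88 CPM in air macrophages (99 to 207 counts). Every PM2.5 library was below every air library, as for 0.815% of all genes tested, although the highest PM2.5 and lowest air libraries were close. The means were 4.64 ± 0.613 CPM with PM2.5 and 6.81 ± 1.06 CPM with air (SD, n = 5 each), a log2 fold change of -0.55 ± 0.143 (SE; 95% interval -0.86 to -0.23), or 1.46-fold lower with PM2.5. The unadjusted p was 0.00251, and over all 15696 genes tested the adjusted p was 0.279 with edgeR, so Ahrr did not pass. A two-sided exact permutation test of the CPM values gave p = 0.00794, the smallest that 5 against 5 libraries allow, in 1 of 12 such tests made on the 6 genes in 2 experiments.

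The call depended on the method. With DESeq2 the adjusted p was 0.0326 and with the joint fit of all 18 libraries 0.975, with log2 fold changes between -0.61 and -0.38 over all 20 alternatives. With PM2.5 replicate 1 counted as air, as its treatment field has it, the log2 fold change was -0.38 (adjusted p = 0.612).

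Several marker sums also differed between these libraries, each with overlap. The 5 monocyte markers summed to 3380 to 4530 CPM in PM2.5 and 4250 to 6120 CPM in air macrophages, but 3 of the 5 had a log2 fold change above 0. The 8 endothelial markers summed to 608 to 745 CPM with PM2.5 and 716 to 904 CPM with air, with all 6 tested ones below 0. Air spleens had 261 to 286 CPM of that sum. Yet 5 of the 8 were lower in air macrophages than in air spleens at an adjusted p under 0.05. Another 2 were higher, the largest log2 fold change being 5.19, so the sum does not follow most of its markers. The red pulp macrophage sums given above overlapped, and 8 of those 10 markers were below 0. The 8 conventional dendritic cell markers summed to 226 to 300 CPM with PM2.5 and 267 to 445 CPM with air, with 7 of 8 below 0. The 8 neutrophil markers summed to 61.4 to 194 CPM with PM2.5 and 33.6 to 91.6 CPM with air, and the 6 plasma cell markers to 1370 to 4480 CPM with PM2.5 and 761 to 2270 CPM with air, all of them above 0 on the log2 scale. With PM2.5 in macrophages none of these markers passed the adjusted threshold, and none was at 0 in every library. Their part in the Ahrr difference was not tested.

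**Figure D3:**
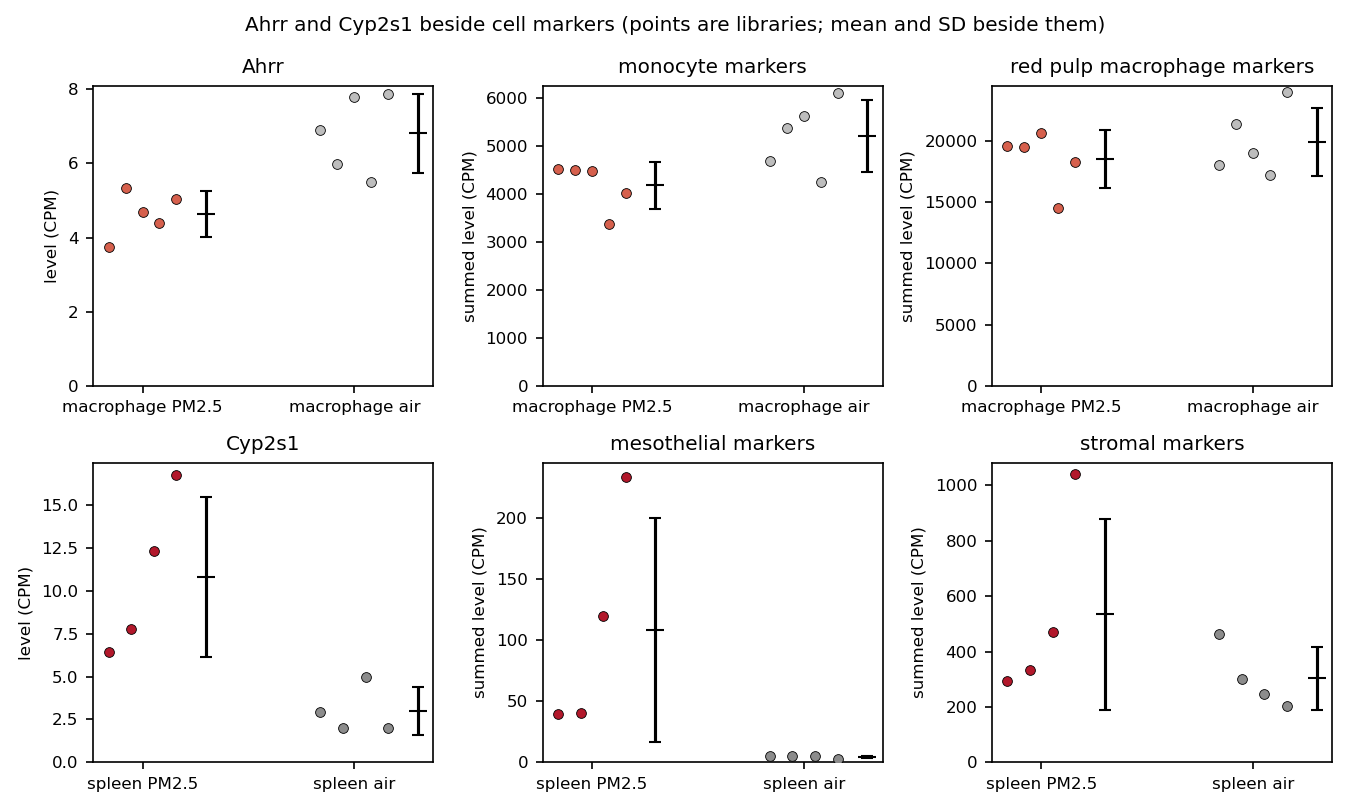
Level of Ahrr and summed levels of monocyte and red pulp macrophage markers in macrophages (upper row), and level of Cyp2s1 and summed levels of mesothelial and stromal markers in spleens (lower row), in CPM, PM2.5 left of air. Points are libraries and the bar beside them is the mean with its SD. Ahrr lies at 3.75 to 5.33 CPM with PM2.5 and 5.5 to 7.88 CPM with air. The PM2.5 spleens stand in the same order for Cyp2s1 and for both marker sums, and the air spleens do not.

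In whole spleen Ahrr was near the limit of detection, with 0.793, 0.24, 2.38 and 0.0933 CPM in PM2.5 spleens (19, 5, 53 and 2 counts). Air spleens had 0.541, 0.673, 1.94 and 0.714 CPM (9, 14, 41 and 13 counts). Replicate 3 was the highest library of both groups, and the groups overlapped. The log2 fold change was -0.15 (95% interval -2.04 to 1.73, adjusted p = 0.947), an interval that includes changes of either sign, and the sign turned in 5 of 18 alternatives.

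Cyp1a1, the monooxygenase that AHR ligands classically induce, had 5, 0, 5 and 2 counts in PM2.5 spleens and 0, 4, 0 and 6 counts in air spleens. PM2.5 macrophages had 3, 11, 6, 1 and 3 counts, and air macrophages 4, 2, 3, 10 and 4. The sums were 12 counts in PM2.5 spleens (95% exact Poisson interval 6.2 to 21) and 10 in air spleens (4.8 to 18.4). In macrophages they were 24 with PM2.5 (15.4 to 35.7) and 23 with air (14.6 to 34.5). The intervals overlapped within each preparation, and they cover counting error only. For the 3 spleen libraries at 0, a bound of 3 counts was divided by the library total, without TMM scaling. It gave 0.161 CPM in PM2.5 replicate 2 and 0.182 and 0.147 CPM in air replicates 1 and 3. Counts were too low for the filter, so Cyp1a1 was tested only without it, and a change within those intervals was not detectable at this depth. Without the filter, the log2 fold change was 0.02 in spleens (adjusted p = 0.997) and -0.18 in macrophages (adjusted p = 0.942), and 0.81 between air macrophages and air spleens (adjusted p = 0.547).

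Cyp1b1, which metabolises hydrocarbons, oestrogens and retinoids, had 2.42, 2.34, 1.69, 2.06 and 1.02 CPM in PM2.5 macrophages (27 to 61 counts). Air macrophages had 0.837, 1.09, 1.62, 0.823 and 1.08 CPM (16 to 43 counts). Of the PM2.5 libraries 4 lay above every air library, and replicate 5 lay among them. The means were 1.91 ± 0.569 CPM with PM2.5 and 1.09 ± 0.322 CPM with air (SD, n = 5 each), a log2 fold change of 0.79 ± 0.277 (SE; 95% interval 0.18 to 1.39), or 1.72-fold higher with PM2.5. The unadjusted p was 0.0148, the adjusted p 0.36 with edgeR and the two-sided exact permutation p 0.0317, so Cyp1b1 did not pass. With PM2.5 replicate 1 counted as air the log2 fold change was 0.43 (adjusted p = 0.745).

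At this level in macrophages Cyp1b1 stood beside few stromal counts. The 9 stromal markers summed to 14.1, 16.9, 13.6, 14.1 and 12.5 CPM in PM2.5 and 10.8, 14.6, 12.9, 9.82 and 13.1 CPM in air macrophages, with 4 of the 7 tested ones above 0 and Lum at 0 in all 10 libraries. The library lowest for Cyp1b1 was also lowest for them, replicate 5 with PM2.5 and replicate 4 with air. The highest libraries did not match. For Cyp1b1 these were PM2.5 replicate 1 (2.42 CPM) and air replicate 3 (1.62 CPM), and for the markers replicate 2 of each group. Their part in the Cyp1b1 difference was not tested.

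In spleens Cyp1b1 had 68.9, 58.2, 61.2 and 62.6 CPM with PM2.5 and 66.6, 44.7, 59.3 and 50.4 CPM with air. The groups overlapped, air replicate 1 being second only to PM2.5 replicate 1. The log2 fold change was 0.18 (95% interval -0.12 to 0.48, adjusted p = 0.541). Stromal markers summed to 295 to 1040 CPM with PM2.5 and 203 to 464 CPM with air, with 9 of 9 above 0 and none past the adjusted threshold. By library the stromal sums were 295, 334, 472 and 1040 CPM with PM2.5 and 464, 300, 247 and 203 CPM with air, and their part in the Cyp1b1 levels was not tested.

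Tiparp, the feedback ADP-ribosyltransferase, had 33.8, 37.6, 37.2, 40.6 and 33.7 CPM in PM2.5 macrophages and 33.5, 35.3, 33.4, 32.2 and 33.1 CPM in air macrophages. PM2.5 replicates 2, 3 and 4 lay above every air library, and the other 2 lay within the air range. The log2 fold change was 0.13 (95% interval -0.03 to 0.29, adjusted p = 0.539). PM2.5 spleens had 26.0, 25, 24.2 and 23.1 CPM and air spleens 25.2, 21.5, 22.5 and 16.1 CPM. The spleen groups overlapped through air replicate 1, with a log2 fold change of 0.20 (95% interval -0.14 to 0.55, adjusted p = 0.549).

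Counted over the members, 0 of the 5 tested passed an adjusted p of 0.05 with PM2.5 in spleens, where 0.0121% of 16551 genes did. In macrophages 0 of 5 passed, against 0% of 15696 genes. At an unadjusted p under 0.05 there were 0 of 5 members in spleens (16.7% of all genes) and 2 of 5 in macrophages (10.9%), Cyp1b1 higher and Ahrr lower. DESeq2 called 830 genes in spleens and 175 in macrophages, of which 0 and 1 were members, and limma-voom called 1 and 0 genes, no member among them. Groups did not overlap for 0 of 5 members in spleens (8.95% of all genes) and for 1 of 5 in macrophages (2.23%). The median log2 fold change of the members was 0.13 in spleens and -0.05 in macrophages, beside 0.02 and 0.01 over all genes tested.

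**Figure D4:**
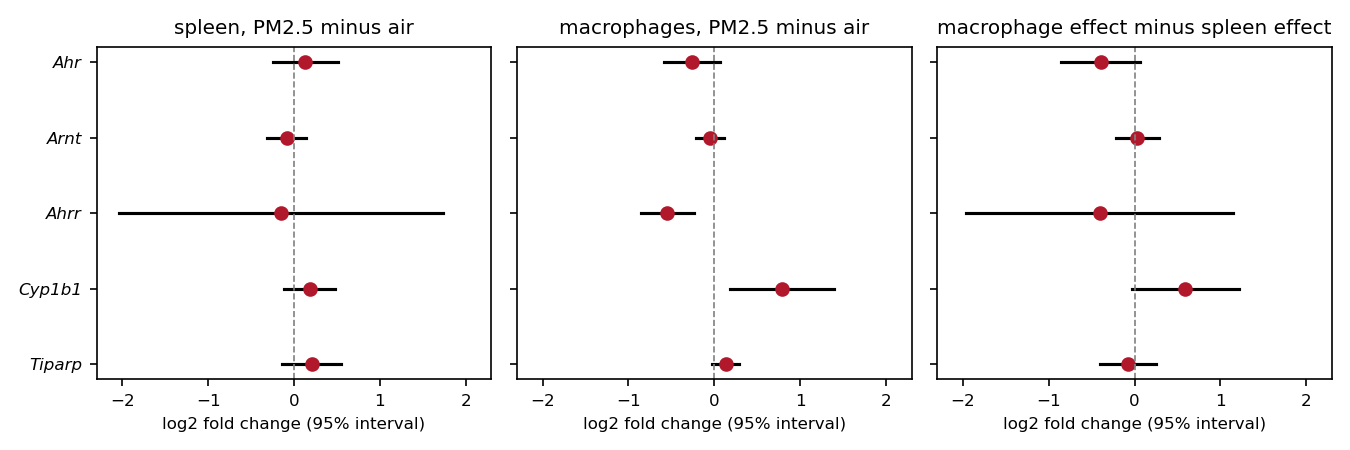
Log2 fold change (x axis) of the 5 tested members for PM2.5 minus air in spleens, PM2.5 minus air in macrophages, and the difference of those effects, macrophage minus spleen. Points are edgeR estimates and lines their 95% intervals. In macrophages the intervals of Ahrr (-0.86 to -0.23) and Cyp1b1 (0.18 to 1.39) lie off 0, and no estimate passed the adjusted threshold.

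Whether PM2.5 acted differently in the 2 preparations was tested as a contrast in the joint fit. The difference, macrophage minus spleen, passed for 0 of 5 members, where 1.46% of 17779 genes passed. It was 0.59 for Cyp1b1 (95% interval -0.04 to 1.21, adjusted p = 0.269) and -0.39 for Ahr (-0.86 to 0.07, adjusted p = 0.322). For Ahrr it was -0.40 with the widest interval of the members (-1.96 to 1.15, adjusted p = 0.799). Arnt (0.03) and Tiparp (-0.08) had adjusted p-values of 0.912 and 0.815. The interval for Cyp1b1 reaches a log2 difference of 1.21, and that for Ahrr includes either order.

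Beyond the members, 64 further genes in 6 lists of the pathway's partners and products were read in the same fits. None passed an adjusted p of 0.05 with PM2.5: 0 of 51 tested in spleens and 0 of 47 in macrophages, with lowest adjusted p-values of 0.108 and 0.287. At an unadjusted p under 0.05 there were 9 in spleens (17.6% of those tested, 16.7% of all genes) and 4 in macrophages (8.51%, 10.9% of all genes). Groups did not overlap for 6 in spleens (11.8%) and 1 in macrophages (2.13%), near the shares over all genes of 8.95% and 2.23%. Their median log2 fold changes were 0.02 and -0.06.

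Among other genes reported as AHR targets, 6 of 13 could be tested in each preparation. Cyp2s1, a cytochrome P450 of epithelia, had 6.43, 7.78, 12.3 and 16.7 CPM in PM2.5 spleens, against 2.95, 2.02, 4.97 and 2.03 CPM in air spleens. All PM2.5 spleens lay above all air spleens, and the log2 fold change was 1.84 with an SE of 0.385 and an adjusted p of 0.108. It passed in 4 of 19 alternatives: with DESeq2 (adjusted p = 0.000462), without the filter on low counts (0.00817), in the joint fit (0.00609) and without PM2.5 replicate 1 (0.0472). Those settings called 830, 461, 1050 and 136 genes in all, against 2 in the main fit. In the other 15 alternatives Cyp2s1 did not pass, with adjusted p-values of 0.188 with limma-voom and up to 0.689. In macrophages it had 0.825 ± 0.277 CPM with PM2.5 and 1.23 ± 0.198 CPM with air (SD, n = 5 each; log2 fold change -0.55, adjusted p = 0.444), and the groups overlapped. The difference of its PM2.5 effect, macrophage minus spleen, was -2.40 ± 0.467 (SE, adjusted p = 0.0185). That difference did not pass with limma-voom (adjusted p = 0.0775) or with macrophage PM2.5 replicate 1 counted as air (0.0575).

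Some marker sums stood in the order of Cyp2s1 among the PM2.5 spleens. Others did not, such as the erythroid sum at 903, 15300, 4070 and 9240 CPM. In air spleens replicate 3 was highest for Cyp2s1 (4.97 CPM), and replicate 1 for the mesothelial and stromal sums. The mesothelial sums in PM2.5 spleens were 39.7, 40.6, 120 and 234 CPM, in the same order of libraries, against 5.35, 4.9, 4.87 and 2.75 CPM in air spleens. All 7 were above 0 on the log2 scale, with a median of 5.0, none passed the adjusted threshold and none was at 0 in every library of a group. The PM2.5 spleens stood in that order also for the stromal (295 to 1040 CPM), red pulp macrophage (568 to 861 CPM), platelet (73.1 to 226 CPM), eosinophil and mast cell (7.64 to 13.9 CPM) and liver (77.4 to 223 CPM) sums. Air spleens had 203 to 464, 379 to 709, 54.2 to 161, 2.69 to 5.59 and 94.4 to 148 CPM of these 5 sums. Single liver markers did not follow their sum: of the 4 tested, 1 was above 0 and 3 below. Their median log2 fold change was -2.41, with 0 past the adjusted threshold. The part of any of these markers in the Cyp2s1 difference was not tested. Nqo1, a quinone reductase shared with the NRF2 pathway, had 2.86 ± 1.89 CPM in PM2.5 and 1.02 ± 0.684 CPM in air spleens (SD, n = 4 each), with overlapping groups and an adjusted p of 0.251. In macrophages it had 2.51 ± 1.01 CPM with PM2.5 and 1.72 ± 0.983 CPM with air (SD, n = 5 each; adjusted p = 0.632).

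The receptor complex and its coregulators had 10 of 10 genes tested in both preparations. In spleens Arnt2, a paralogue of Arnt, had 4.58 ± 2.6 CPM with PM2.5 and 1.27 ± 0.952 CPM with air (log2 fold change 1.85, adjusted p = 0.18), and the libraries did not overlap. Ptges3, the p23 co-chaperone, lay the other way without overlap, at 143 ± 11.9 CPM with PM2.5 and 183 ± 26.1 CPM with air (SD, n = 4 each; adjusted p = 0.185). In macrophages the coactivators Ncoa3 and Ep300 and the corepressor Nrip1 had the smallest p-values of the list, with log2 fold changes from -0.22 to -0.20 and overlapping groups.

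Of the genes that make or carry tryptophan-derived ligands, 9 of 13 were tested in spleens and 8 in macrophages. Slc7a5, the light chain of the LAT1 amino acid transporter, had 36.2 ± 17.9 CPM in PM2.5 and 19.7 ± 5.61 CPM in air spleens (SD, n = 4 each; log2 fold change 0.88, adjusted p = 0.206). In macrophages it had 52.8 ± 6.22 CPM with PM2.5 and 35.8 ± 12.1 CPM with air (SD, n = 5 each; 0.57, adjusted p = 0.373). Its partner Slc3a2 had 116 ± 17 CPM in PM2.5 and 94.4 ± 13.2 CPM in air spleens (adjusted p = 0.343), and 322 ± 67.5 CPM in PM2.5 and 257 ± 36.3 CPM in air macrophages (adjusted p = 0.428). PM2.5 and air libraries of both genes overlapped in both preparations. Afmid, which makes kynurenine from formylkynurenine, had 11.7 ± 3.95 CPM in PM2.5 and 7.06 ± 0.952 CPM in air spleens (adjusted p = 0.205).

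ARNT's hypoxia branch was read through 10 target genes, all tested. In macrophages Ndrg1 had 17.3, 17.5, 13.7, 15.9 and 15 CPM with PM2.5, against 12.4, 11.1, 13.5, 13.1 and 10.4 CPM with air. It was the only gene of the 6 lists whose macrophage groups did not overlap, and its log2 fold change was 0.39 with an SE of 0.107 and an adjusted p of 0.287. In spleens Pgk1 had 125 ± 11.6 CPM with PM2.5 and 157 ± 21.5 CPM with air, and Ankrd37 10.6 ± 3.32 CPM with PM2.5 and 15.7 ± 2.21 CPM with air (SD, n = 4 each), both overlapping, with adjusted p-values of 0.219 and 0.264. The list's median log2 fold change was -0.02 in spleens and 0.02 in macrophages.

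No gene of the remaining lists passed either. Of 10 other bHLH-PAS proteins, 8 were tested in spleens and 5 in macrophages, with none at an unadjusted p under 0.05, and Hif1a had 93.4 ± 10.8 CPM in PM2.5 and 110 ± 12 CPM in air spleens. Among 8 PARPs of the mono-ADP-ribosyltransferase kind to which TIPARP belongs, Parp12, also an interferon-induced gene, had 15.1 ± 1.75 CPM in PM2.5 and 9.55 ± 2.48 CPM in air spleens (SD, n = 4 each). Its spleen groups did not overlap (log2 fold change 0.66, adjusted p = 0.17). In macrophages 0 of the 8 had an unadjusted p under 0.05.

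**Figure D5:**
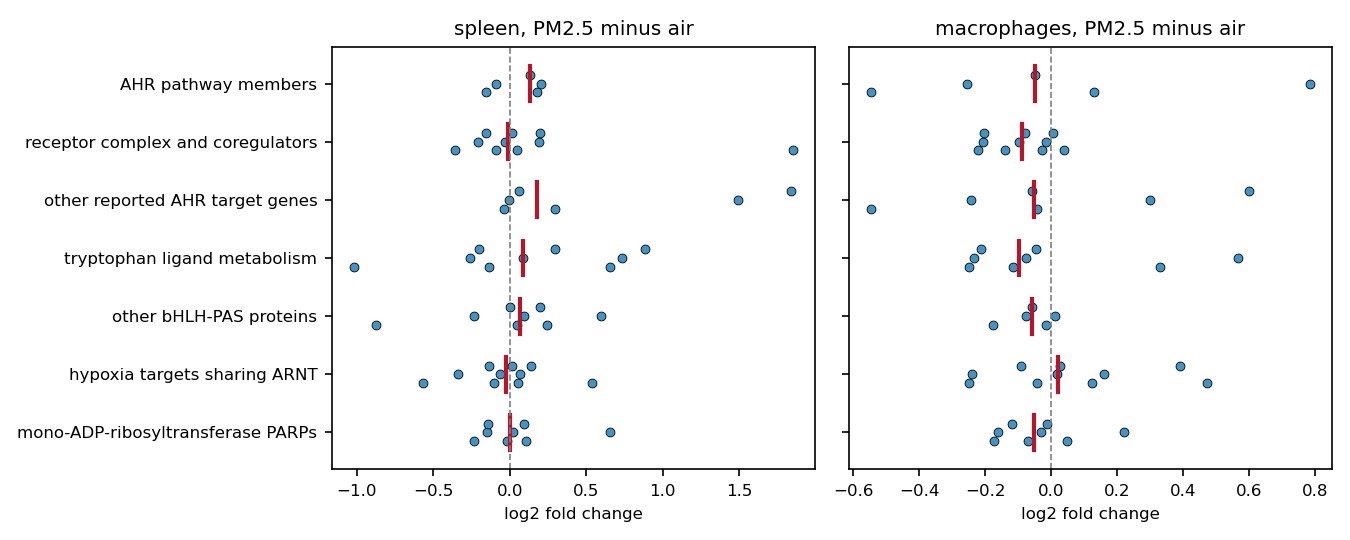
Log2 fold change (x axis) of each tested gene of the pathway and of its 6 lists, PM2.5 minus air, in spleens (left) and macrophages (right). Points are genes and red bars the median of each list; the x axes differ in range. Apart from Arnt2, Cyp2s1 and Nqo1 in spleens, between 1.5 and 1.85, most points lie close to 0.

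Between the preparations, of the 10 receptor complex and coregulator genes, 6 were higher and 1 lower in air macrophages than in air spleens at an adjusted p under 0.05, where 33.3% of all genes passed in each direction. Of the 10 hypoxia targets, 1 was higher and 8 lower. The median log2 fold change was 0.60 for the receptor complex list and -1.22 for the hypoxia targets, against 0.001 over all genes.

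The genes whose levels ran closest to each member were found over the 18 libraries, on log2(CPM + 1) after the mean of each preparation was subtracted, among 14561 genes. For Ahr they were Slc12a2 (Pearson r = 0.839), Pld1 (0.825) and Rin2 (0.823), and for Arnt Itsn2 (0.911), Ammecr1l (0.896) and Pi4ka (0.893). For Ahrr they were Adam1a (0.852), Rnf114 (0.808) and Wdr41 (0.802), and for Tiparp Hspa13 (0.903), Zscan30 (0.853) and Eif3a (0.843). For Cyp1b1 they were Coch (0.837), Mrpl16 (0.826) and Cdh11 (0.81). Some of these values rested more on 1 preparation. Ahrr with Rnf114 had r = 0.94 in spleens and 0.35 in macrophages. Tiparp had 0.93 in spleens and 0.54 in macrophages with Zscan30, and 0.91 and 0.59 with Eif3a. Cyp1b1 leaned the other way, with 0.63 in spleens and 0.87 in macrophages for Mrpl16. Cyp1a1 was too low to enter. These values are descriptions: the highest of many are named, and the libraries share depth, composition and the exposure groups.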

How the data were processed

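PolyA RNA from 8 whole spleens and 10 spleen macrophage preparations was sequenced, with RNA from a Qiagen RNeasy kit and NEBNext Ultra II libraries, per the labels. The deposited values are raw counts, whole reads per Ensembl gene with no normalization. The submitters' processing notes name FastQC 0.10.1, HTSeq 0.10.0 and the builds mm10 and GRCm38. The sources used here do not give the aligner, the annotation release or the strand setting. Symbols came from GENCODE M21, which matched 52133 of 55414 identifiers; the other 3281 held 0.303% of counts.

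The tests used edgeR 4.0.16 in R 4.3.3, with filterByExpr (minimum count 10, minimum total 15), TMM, and the two-sided quasi-likelihood test, with Benjamini-Hochberg adjustment over all genes tested and a threshold of 0.05. Spleens and macrophages were fitted separately, while the contrast of preparations and the difference of effects came from a joint fit. Adjusted p-values are edgeR's unless another tool is named. The sign of a log2 fold change is that of PM2.5 minus air, or macrophage minus spleen. The p-values of these tests set a difference between groups against the spread between the labelled biological replicates. No source says which libraries share an animal. Alternatives were DESeq2 1.42.0, limma-voom (limma 3.58.1), other scalings and filters, a replicate block and leaving out libraries. The separate edgeR fits of PM2.5 against air were tested on simulated counts, with changes placed only in genes above a count limit. Genes with few counts, the joint fit and the other tools were not covered by that test.

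The members and gene lists were chosen with earlier results of these data known. All members were named in every comparison, with the 3 genes of smallest p per list and the 3 most alike genes per member, except 1 list gene that is not reported here. Tdo2 was named outside that rule, because its spleen groups did not overlap. The alternatives run on Cyp2s1 were added after its values were seen.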

Additional observations from a re-analysis of the deposited data

Results flagged for a closer look

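Ahrr in spleen air replicate 3 stood at 1.94 CPM, apart from the other 3 air spleens at 0.541 to 0.714 CPM. Its gap to the nearest library was 0.877 of the group's range, above the critical value for 4 samples, and it was the only such sample in 24 groups of member levels, where chance gives about 1 in 20. PM2.5 replicate 3 was likewise the highest PM2.5 spleen, at 2.38 CPM.

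The PM2.5 effect on Cyp2s1 differed between the preparations by a log2 fold change of -2.40 (macrophage minus spleen, adjusted p = 0.0185 in edgeR's joint fit), from -0.55 in macrophages and 1.84 in spleens. Leaving out each library in turn gave -2.75 to -2.11, with adjusted p-values of 0.00866 to 0.0458. Mesothelial markers summed to 39.7 to 234 CPM in PM2.5 spleens and 2.75 to 5.35 CPM in air spleens, and to at most 1.57 CPM in macrophages of either group. Stromal markers summed to 295 to 1040 CPM in PM2.5 and 203 to 464 CPM in air spleens, and to at most 16.9 CPM in macrophages. The part of either was not tested.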

How the results depend on the processing

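The count of members past the threshold was 5 for the preparations and 0 in spleens and for the difference of effects under every alternative run. In macrophages it was 0, and 1 with DESeq2 (Ahrr). With a replicate block 0 members passed in either experiment, and Ahrr had a log2 fold change of -0.68 in spleens and -0.55 in macrophages (adjusted p = 0.231). Same-numbered libraries did not deviate together in every pair (r from -0.14 to 0.06 in spleens and -0.14 to 0.28 in macrophages), so the numbers were not taken as pairs; only replicate 3 in spleens and replicates 4 and 5 in macrophages correlated best with their own number. Over all genes, 2 were called in spleens (0 to 1050 over the alternatives, highest in the joint fit), 0 in macrophages (0 to 175, highest with DESeq2) and 259 for the difference of effects (3 with limma-voom to 1317 without spleen air replicate 2). Of 517 single-gene alternatives, 499 kept the direction and the side of the threshold, 5 gained and 2 lost it, and 11 turned the sign; the cause was not tested, and none of the 11 was called.

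The sign of Ahrr in spleens (-0.15) turned without air replicate 3 (0.43), without PM2.5 replicate 2 (0.17) or 4 (0.22), without both of these (0.71) and without air replicates 3 and 4 (0.52). Arnt in macrophages (-0.05) gave 0.0036 without PM2.5 replicate 1 and 0.0568 with it counted as air. For the difference of effects, Ahrr (-0.40) gave 0.28 with limma-voom and 0.79 without spleen PM2.5 replicate 3, Arnt (0.03) gave -0.0069 without the filter, and Tiparp (-0.08) gave 0.0435 without spleen air replicate 4. Leaving out 1 library at a time, Ahrr ranged from -1.34 to 0.43 in spleens and -0.61 to -0.50 in macrophages, Cyp1b1 from 0.68 to 0.99 and Arnt from -0.0774 to 0.0036 in macrophages, and the difference of effects from -0.999 to 0.79 for Ahrr and -0.164 to 0.0435 for Tiparp. Ahrr and Cyp1a1 rest on few counts in spleens, and Cyp1a1 was tested only without the filter.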
